A study of Schizosaccharomyces pombe with 3 samples.

Results

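The genes *atf1*, *pcr1* and *taz1* of fission yeast (*Schizosaccharomyces pombe*) encode DNA-bound factors that bring silencing to chosen sites, Atf1 and Pcr1 to the mating type locus and Taz1 to telomeres. They are 3 of the 36 genes in the list of silencing factors whose values the study supplied with the paper. That list also holds *act1*, the actin gene. The 3 members were taken for the sites at which they act. Atf1 and Pcr1 are bZIP proteins of the ATF/CREB family that pair with each other, are tied to the stress-activated MAP kinase pathway, and recruit heterochromatin in parallel to RNA interference. Taz1 is the telomere repeat binding protein of fission yeast, related to mammalian TRF proteins. Dhp1 is the essential nuclear 5'-3' exoribonuclease of the Xrn2 family, whose relatives take part in the termination of transcription by RNA polymerase II. Din1 is its binding partner and removes phosphates from unfinished 5' ends.

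RNA of mutants was compared with wildtype RNA on 3 Agilent 2-colour tiling arrays, mutant in Cy5 and wildtype in Cy3. The groups were *dhp1-1* on 2 arrays described as biological replicates, and *din1Δ* on 1 array, so that values of *din1Δ* have no replicate and no test. The *dhp1-1* cells were of strain p1088, which also carries mat1-Msmt0, leu1-32, ade6 DN/N, ura4 DS/E, a ura4+ reporter in the outer repeat of centromere 1 and an ade6+ reporter at mat2, and were set against wildtype strain p1087. The *din1Δ* cells were of strain p1044 and were set against wildtype strain p344, and the further genotypes of these last strains and of p1087 are not given in the sources used here. All cultures grew to log phase at 30°C in the rich medium YEA, a temperature at which the temperature-sensitive *dhp1-1* allele permits growth. Any difference between the wildtype strains is part of each difference between the mutants, dyes were not swapped, and *dhp1-1* replicate 1 and *din1Δ* shared a slide.

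The probes carry numbers only. Each member was placed as the run of every other probe whose mean in the deposited log2 table gives both values listed for the gene in the study, within 1e-08 on the log2 scale, and the listed values served for nothing else. All 36 genes were placed, 26 of them at a single run. The 3 members each had 1 run and hold 28 of the 174063 numbered probes. *atf1* (SPBC29B5.01, chromosome II) has 23 probes, numbered 39189 to 39233. *taz1* (SPAC16A10.07C, chromosome I) has 4 probes, 163941 to 163947, and *pcr1* (SPAC21E11.03C, chromosome I) has 1 probe, 168585. A statement on *pcr1* is therefore a statement on 1 spot an array. The array is denser in the part that holds *atf1* than in the part that holds the other members. Probe numbers rise 5' to 3' along *atf1* and fall along *pcr1* and *taz1*, as inferred from the order of the genes and the strand that their locus tags give. In the gene order of RefSeq assembly ASM294v3, used here for names and neighbours, *atf1* lies between *fic1* and *isp4*, *pcr1* between *rpl801* and *aca1*, and *taz1* between *nse2* and *mug74*. These neighbours are the protein-coding ones, and annotated long non-coding RNAs overlap each member. Locus tags place *isp4* on the strand opposite to *atf1*, so the 2 genes point towards each other.

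All 28 probes were well above background in both channels of all 3 arrays. No spot of them was an outlier or saturated. In wildtype the strand of the run was brighter than the opposite strand at each member on each array. The log2 difference was 3.40, 2.12 and 3.1 for *atf1*, 4.61, 3.30 and 5.38 for *pcr1* and 2.57, 2.89 and 2.76 for *taz1*, in the order *dhp1-1* replicate 1, *dhp1-1* replicate 2 and *din1Δ*, which is kept below. Wildtype brightness was also one of the measures by which strand was inferred. Over the array, wildtype was above background at 67.2% to 71.7% of the numbered probes, and the ratios of bright probes correlated at 0.77 between the *dhp1-1* replicates, at 0.36 between replicate 1 and *din1Δ*, and at 0.11 between replicate 2 and *din1Δ* (Pearson, 104189 probes that share each array's spots and are not replicates).

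In *dhp1-1*, none of the 3 genes passed the test for a changed RNA level, and each had opposite signs in the replicates. Of the 36 listed genes 15 had opposite signs in the replicates, these 3 among them. Each ratio below is log2 of mutant over wildtype, as the mean of a gene's probes. They were tested with limma against 0, with Benjamini-Hochberg adjustment over 8761 features, most of them same-strand tiles of 20 probes. Of these features 29.2% had an adjusted p under 0.05 in *dhp1-1*, 18.7% higher and 10.4% lower, against 0 of the 3 members.

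For *atf1* the log2 ratios were -0.40 and 0.04 in the *dhp1-1* replicates and -0.26 in *din1Δ*. Replicate 1 and *din1Δ*, the arrays of the shared slide, lay below wildtype and replicate 2 lay at wildtype. The *dhp1-1* mean was -0.18 ± 0.31 (SD, n = 2), with a 95% confidence interval of -0.39 to 0.02 (standard error 0.10, adjusted p = 0.185 from limma). The difference between *dhp1-1* and *din1Δ* was 0.07 (95% confidence interval -0.29 to 0.44, adjusted p = 0.845 from limma). This test has no spread for *din1Δ*. With so few arrays the spread behind both intervals is mostly borrowed from all features. Both *dhp1-1* replicates fell outside the interval of their mean.

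For *taz1* the log2 ratios were 0.06, -0.29 and 0.11. All 3 arrays lay within 1.6-fold of wildtype, which is 0.68 on the log2 scale. The *dhp1-1* mean was -0.11 ± 0.24 (SD, n = 2), with an interval of -0.31 to 0.08 (adjusted p = 0.409 from limma). With tiles of 4 probes, the number that *taz1* has, the interval was -0.38 to 0.15 (adjusted p = 0.597 from limma). The difference between the mutants was -0.22 (interval -0.57 to 0.12, adjusted p = 0.449 from limma).

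For *pcr1* the log2 ratios were -0.15, 0.42 and -0.96. The *dhp1-1* replicates fell on either side of wildtype, and *din1Δ* lay below both. The *dhp1-1* mean was 0.13 ± 0.40 (SD, n = 2), with an interval of -0.09 to 0.35 (adjusted p = 0.399 from limma). That interval leaves out both replicates and borrows its spread from features that are mostly tiles of 20 probes. With every probe as a feature the interval was -0.23 to 0.49 (adjusted p = 0.692 from limma). The *din1Δ* value is a ratio of 0.514 to wildtype. It was the single value among the 36 genes in *din1Δ* past 1.6-fold. Of the tiles of 20 probes, 1.83% were past 1.6-fold in *din1Δ*, but a single probe is the fairer measure for *pcr1*. Of the probes above background in wildtype on that array, 15.5% were past 1.6-fold in either direction and 7.88% were lower by that much.

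The difference of *pcr1* between the mutants was 1.09 (interval 0.70 to 1.48, standard error 0.19) and passed the test (adjusted p = 0.000422 from limma), as did 13.4% of all features. With every probe as a feature of its own, the standard error rose to 0.32 and the interval to 0.46 to 1.72 (adjusted p = 0.0115 from limma), where 10.5% of probes passed. On the slide that *dhp1-1* replicate 1 and *din1Δ* shared, the difference was 0.81. From the scanner's own ratios it was again 1.09 but did not pass (adjusted p = 0.0728 from limma).

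The spots behind *pcr1* were bright. The median wildtype spot intensities were 2632, 1419 and 3834.5, over local backgrounds of 51, 83 and 59. Those of the mutant were 4367, 2376 and 2012. Mutant spots were thus brighter than wildtype spots on the *dhp1-1* arrays before the dyes were balanced, and dimmer on the *din1Δ* array. The *pcr1* probe stood among 4 same-strand probes in a row that were above background in wildtype on all arrays. The probe on its downstream side had ratios of 0.05, 0.79 and 0.00, and those on its upstream side had -0.69, 0.77 and -0.25, and then 0.07, 0.04 and 0.93. In *din1Δ* these 4 probes therefore ran from -0.96 to 0.93, and their mean was -0.07. Whether the neighbouring probes belong to the *pcr1* transcript was not tested.

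**Figure D1:**
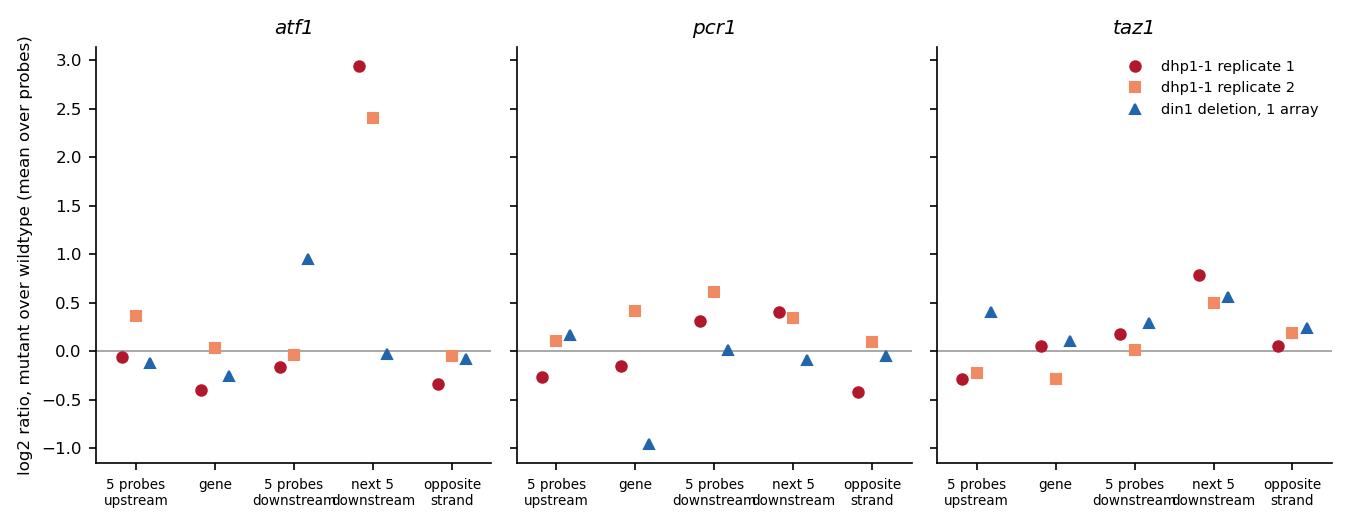
Log2 ratio of mutant over wildtype (y axis) on each of the 3 arrays for *atf1*, *pcr1* and *taz1*, for the probes of the gene, the 5 same-strand probes upstream of it, the 5 downstream, the next 5 downstream and the opposite strand (x axis). Points are means over probes of 1 array and the line marks no difference. The *dhp1-1* points 6 to 10 probes past *atf1* stand at 2.94 and 2.41, while the genes themselves lie between -0.96 and 0.42.

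Along *atf1* the arrays differed in shape as well as in level. In *dhp1-1* replicate 1 all 23 probes were below 0, from -0.66 to -0.09 with a median of -0.43. In replicate 2 only 7 were below 0, with a range of -0.65 to 0.47 and a median of 0.08. In *din1Δ* 17 were below 0, with a range of -1.04 to 0.54 and a median of -0.23. The *din1Δ* ratios stood at -0.46 over the first 11 probes and at -0.04 over the last 11, and at 0.27 over the last 5. Both *dhp1-1* replicates were below 0 over the last 5 probes, at -0.23 and -0.20. The probe-to-probe profile correlated at 0.04 between the replicates and at 0.62 between the arrays of the shared slide (Pearson over 23 neighbouring probes, a description). In the fit by probe, 1 of the 28 member probes was called in *dhp1-1*, *atf1* probe 39229 near the 3' end of the run (-0.47 and -0.65, adjusted p = 0.0155 from limma), against 21.2% of all probes, 7.96% being lower.

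The stretch of wildtype signal around *atf1* was longer than the run. On the *atf1* strand, 44 probes in a row were above background in wildtype on all arrays, 17 before the run and 4 after it. This stretch, and the further blocks downstream of the members, were chosen after their values were seen. Over the whole stretch the ratios were -0.19, 0.19 and -0.21, and the *dhp1-1* mean was 0.00 (interval -0.20 to 0.20). Over the 17 probes before the run the ratios were 0.08, 0.43 and -0.42. Replicate 2 was higher than wildtype there and *din1Δ* was lower. Replicate 1 was near wildtype, with 6 of the 17 probes below 0. The *dhp1-1* mean of 0.26 was at the edge of the threshold (adjusted p = 0.0485 from limma) and did not pass in 7 of 8 alternative fits. The difference between the mutants was 0.67 (interval 0.33 to 1.02, adjusted p = 0.00907 from limma), and passed in 4 of 8 alternative fits. It was greatest at probe 39175, with 0.33, 0.75 and -1.24.

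Just past the *atf1* run, *din1Δ* was higher than wildtype and *dhp1-1* was not. Over the 5 same-strand probes downstream of the run the log2 ratios were -0.16, -0.04 and 0.95. The *din1Δ* value is a 1.93-fold higher level than in wildtype. By probe, *din1Δ* rose from 0.36 and 0.68 to 1.41, 1.22 and 1.07, while no *dhp1-1* value in these probes was above 0.16. The *dhp1-1* mean was -0.10 ± 0.085 (SD, n = 2) with an adjusted p of 0.439 from limma. The difference between the mutants was -1.05 (interval -1.37 to -0.73, adjusted p = 8.25e-05 from limma).

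Further on, the order of the mutants turned round. Over probes 6 to 10 past the *atf1* run (39245 to 39253) the log2 ratios were 2.94, 2.41 and -0.03. Both *dhp1-1* replicates were far above wildtype, and *din1Δ* read near 0 with both channels at background. Wildtype was well above background at only 1 of the 5 probes on the *dhp1-1* arrays, so the ratios of this block are set largely against signal at background. The *dhp1-1* mean was 2.67 ± 0.38 (SD, n = 2, interval 2.46 to 2.89 on the log2 scale, adjusted p = 3.86e-14 from limma). With so few arrays the spread behind this p is mostly borrowed from all features, most of them tiles of 20 probes. Both replicates fell outside that interval. With tiles of 5 probes the standard error of the mean rose from 0.11 to 0.13. The difference from *din1Δ* was 2.70 (interval 2.32 to 3.08, adjusted p = 1.84e-09 from limma). The scanner's own ratios gave a *dhp1-1* mean of 4.12 for the same probes (adjusted p = 0.000167 from limma) and a difference of 4.41 (adjusted p = 0.00634 from limma).

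Probe by probe, the *dhp1-1* ratios of this block were 2.80 and 2.57 at probe 39245, 3.65 and 3.09 at 39247, 3.15 and 2.22 at 39249, 2.87 and 2.62 at 39251, and 2.24 and 1.55 at 39253. All 5 were called in the fit by probe, against 21.2% of all probes. The *din1Δ* ratios of the same probes lay between -0.40 and 0.38. Wildtype signal fell steeply at the near edge of the block, though on the *dhp1-1* arrays it was still well above background at 39245. The wildtype spot of the last probe of the downstream 5 had 126, 150 and 78 intensity units, after 1642, 803 and 994 at the probe before it. At 4 of the 5 probes of the block wildtype was not well above background on either *dhp1-1* array while the mutant was on both, so that the ratios there are bounds. As bounds on the mean of the *dhp1-1* arrays, the mutant was at least 10.3-fold brighter at 39247, 6.41-fold at 39249, 5.57-fold at 39251 and 3.71-fold at 39253. For these bounds the channels were compared after loess and Aquantile normalization, and no dye swap balanced them. Wildtype dimmer than the dimmest signal counted as above background was raised to it, which changed the value only at 39251. At 39247, 39249 and 39253 the bound is the mean measured ratio, and replicate 2 alone was lower. In *din1Δ* neither channel was above background at any of the 5 probes.

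The rise in *dhp1-1* faded over the following probes, on the side of *isp4*, whose place among the probes is not known. The next same-strand probe, 39255, had 1.48 and 1.26, the one after it 0.66 and 0.29, then 0.84 and 0.78, 0.29 and 0.14, and 0.12 and -0.21. Over these 5 probes the *dhp1-1* mean was 0.56 ± 0.16 (SD, n = 2, adjusted p = 5.80e-05 from limma), and *din1Δ* was at 0.09. The 6 probes of the opposite strand between and beside the raised block had means of 0.07, 0.39 and 0.13, and the *dhp1-1* mean of 0.23 did not pass (adjusted p = 0.0700 from limma). These probes were mixed, with 4 above 0 and 2 below 0 in both *dhp1-1* replicates. They ran from -0.63 to 0.66 in replicate 1 and from -0.59 to 1.02 in replicate 2. In the fit by probe 4 of the 6 were called in *dhp1-1*, against 21.2% of all probes. Opposite to the *atf1* run itself the ratios were -0.34, -0.05 and -0.08 (adjusted p = 0.124 from limma for *dhp1-1*), with wildtype above background at 10 to 11 of those 24 probes.

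**Figure D2:**
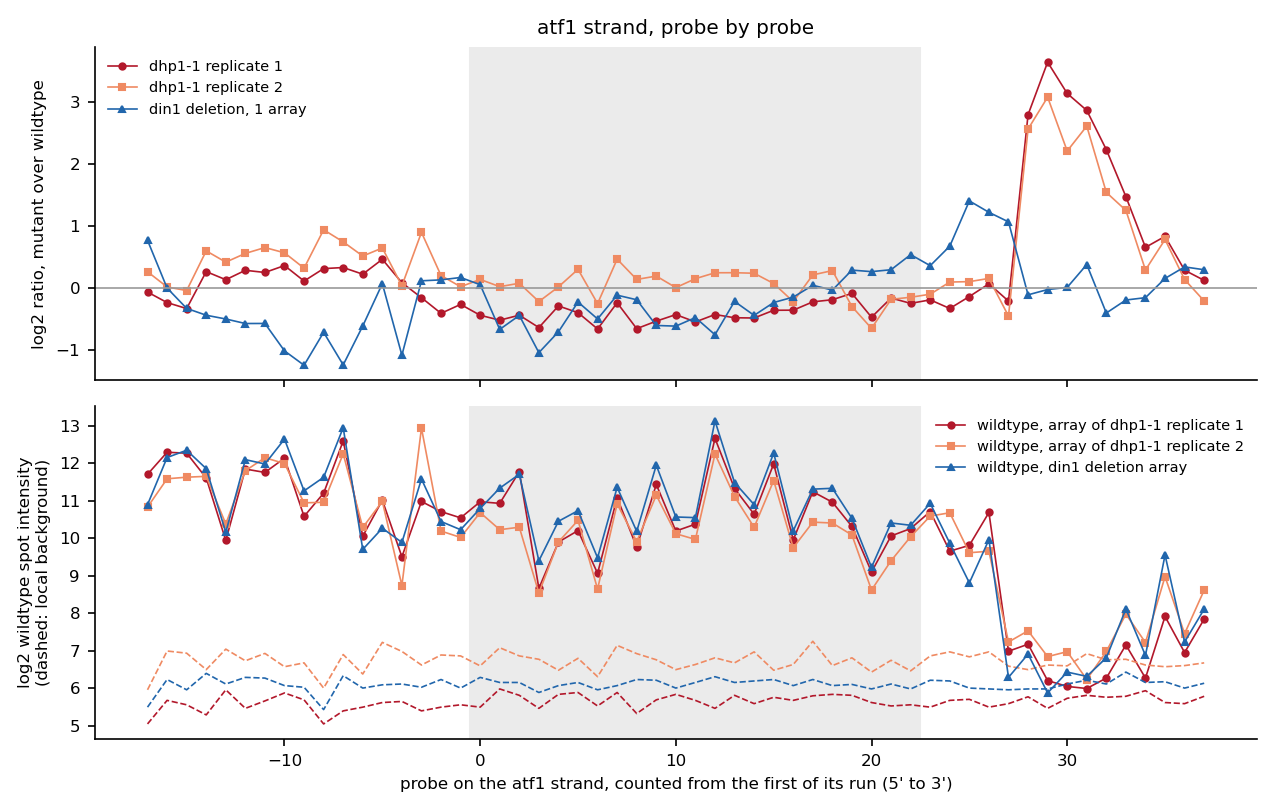
Upper plot, log2 ratio of mutant over wildtype at each probe of the *atf1* strand, counted 5' to 3' from the first probe of the run at 0 (x axis), with the run shaded. Lower plot, log2 of the wildtype spot intensity of the same probes on each array, with local background dashed. Wildtype signal drops steeply at the 5th probe past the run, *din1Δ* peaks at 1.41 before it and the *dhp1-1* replicates peak at 3.65 and 3.09 after it. That 5th probe was still above background in wildtype on the array of *dhp1-1* replicate 1.

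Downstream of *pcr1* the same block sizes gave smaller values. The sparse probes of this part reach quickly into neighbouring genes, so that a block here is not the same distance as at *atf1*. Over the 5 same-strand probes downstream of *pcr1* the log2 ratios were 0.31, 0.61 and 0.02. In *dhp1-1* they averaged 0.46 ± 0.22 (SD, n = 2, adjusted p = 0.000699 from limma). The difference from *din1Δ* was 0.44 and did not pass (interval 0.11 to 0.78, adjusted p = 0.0775 from limma). The block is mixed. Its probe 168577 had 1.08, 1.31 and 0.70, while the very bright probe 168579 had -0.62, -0.53 and -0.52. Wildtype was above background at 3 of the 5 probes on each array. With only such probes in both channels the *dhp1-1* mean was 0.35 and missed the threshold (adjusted p = 0.0558 from limma).

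The next 5 probes past *pcr1* had ratios of 0.40, 0.34 and -0.09, with a *dhp1-1* mean of 0.37 (adjusted p = 0.00277 from limma). Without its dim probes this value was -0.05, so the increase rested on probes at or near background in wildtype. The 5 probes after those were at -0.34, -0.10 and -0.24 (adjusted p = 0.0784 from limma for *dhp1-1*). Opposite to *pcr1* the ratios were -0.42, 0.10 and -0.05, and upstream of it -0.26, 0.10 and 0.17. Neither *dhp1-1* mean passed the test (adjusted p of 0.274 and 0.588 from limma).

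Downstream of *taz1* both mutants were higher than wildtype over probes 6 to 10, and parted again beyond them. Over the 5 probes next to the run the log2 ratios were 0.17, 0.01 and 0.29 (adjusted p = 0.494 from limma for *dhp1-1*). Over the next 5 they were 0.78, 0.50 and 0.56. In *dhp1-1* they averaged 0.64 ± 0.20 (SD, n = 2, adjusted p = 1.56e-05 from limma), which is 0.08 above *din1Δ* (interval -0.26 to 0.42). A single probe, 163921, stood out with 1.79, 1.45 and 1.03, and the other 4 lay between 0.13 and 0.78. The 6 probes of the opposite strand between and beside this block were at 0.48, 0.05 and 0.40. Their *dhp1-1* mean of 0.26 just missed the threshold (adjusted p = 0.0509 from limma). Over the 5 same-strand probes after the block the ratios were 0.23, -0.39 and 0.56. The *dhp1-1* replicates fell on either side of wildtype there, with a mean of -0.08 (adjusted p = 0.632 from limma). The difference from *din1Δ* was -0.64 (interval -1.04 to -0.24, adjusted p = 0.0299 from limma), passed in 2 of 8 alternative fits and was -0.33 without *dhp1-1* replicate 2. The next annotated protein-coding gene on this side is *nse2*, which its locus tag places on the same strand as *taz1*, and the files do not say where it begins among these probes.

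Upstream of *taz1* the mutants parted. The 5 probes had ratios of -0.29, -0.22 and 0.40. In *dhp1-1* their mean was -0.25 ± 0.045 (SD, n = 2, adjusted p = 0.0340 from limma). *dhp1-1* stood below *din1Δ*, with a difference of -0.66 (interval -0.97 to -0.34, adjusted p = 0.00610 from limma). The call in *dhp1-1* was lost in 6 of 8 alternative fits and that of the difference in 3 of 8. Probe 163955 carried much of it, at -0.87, -0.60 and 0.75. Opposite to *taz1* the ratios were 0.05, 0.19 and 0.24 (adjusted p = 0.352 from limma for *dhp1-1*). Within the run, the 4 probes ran from -0.10 to 0.42 in replicate 1, from -0.58 to 0.05 in replicate 2 and from -0.37 to 0.56 in *din1Δ*.

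**Figure D3:**
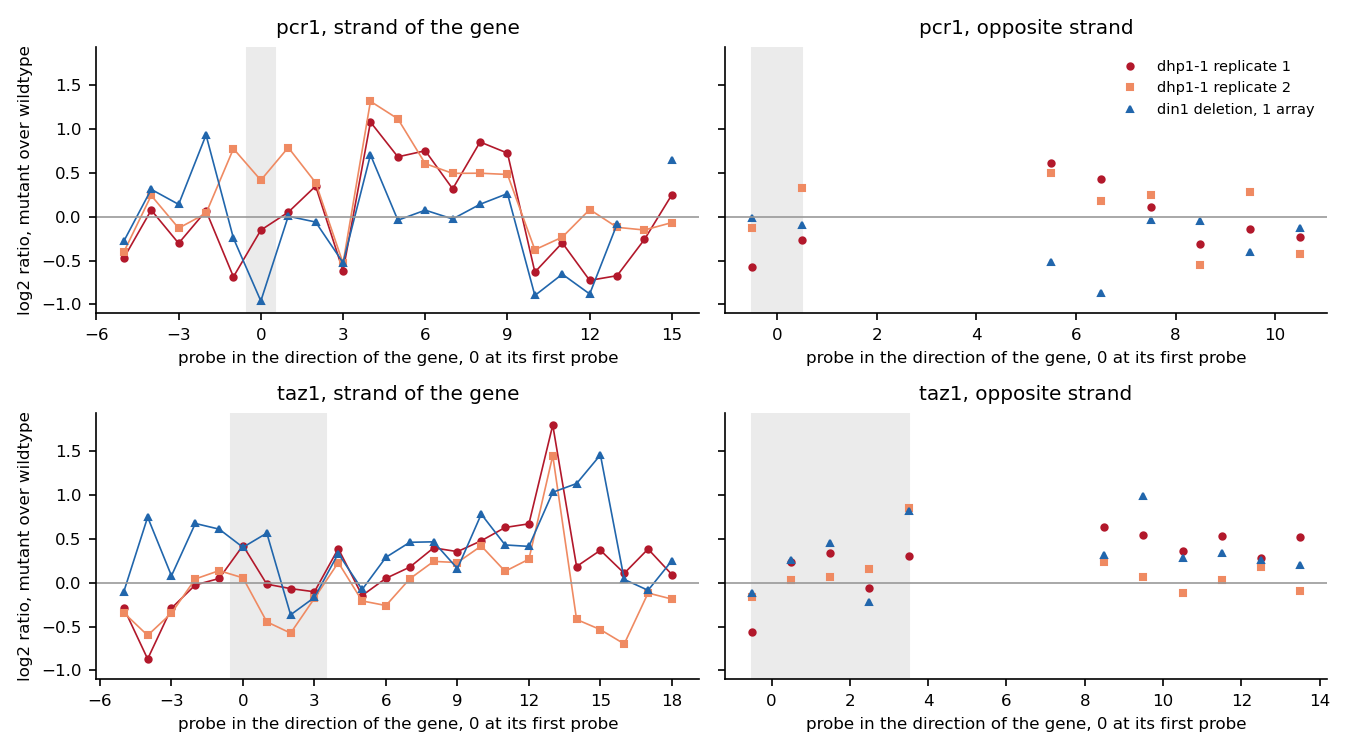
Log2 ratio of mutant over wildtype at each probe on the strand of *pcr1* and *taz1* (left) and on the opposite strand (right), in the direction of the gene with its first probe at 0 (x axis), and the run shaded. Points are single spots of 1 array. The *pcr1* probe reads -0.15, 0.42 and -0.96, and the probe that stands out past *taz1* reads 1.79, 1.45 and 1.03.

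The members were set beside other genes of the same list. Of the 36 genes 11 were called in *dhp1-1*, or 30.6%, near the 29.2% of all features. By direction 2 were higher and 9 lower, where 18.7% of all features were called higher and 10.4% lower. Among the listed genes called lower was the actin gene *act1*, at -0.30 and -0.45 in the *dhp1-1* replicates (adjusted p = 0.00280 from limma). The list had a median of -0.11 in *dhp1-1* and 0.05 in *din1Δ*, and the medians over all tiles were 0.02 and 0.01. SHREC is the histone deacetylase and remodelling complex that such DNA-bound factors help to bring to the mating type locus and telomeres. Of its members *clr1*, *clr2*, *clr3* and *mit1* and of *ccq1*, which encodes a telomere protein that binds SHREC, 2 of 5 were called lower and 0 higher. Lower calls were made at 9 of the 36 genes and at 10.4% of all features. With 5 genes the count is not read as a result on the complex. *clr2* was at -0.52 and -0.69 (adjusted p = 1.91e-05 from limma). On the *dhp1-1* replicate 2 array only 2 of its 4 probes were above background, and in wildtype its run read -0.27 on the log2 scale against the opposite strand. *clr3*, the deacetylase, was at -0.40 and -0.51 (adjusted p = 0.000477 from limma). The other 3 had *dhp1-1* means of -0.18, -0.19 and 0.03, for *clr1*, *mit1* and *ccq1*. None of the 5 was past 1.6-fold in *din1Δ*.

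At 30 of the 36 genes, *taz1* among them, the second *dhp1-1* replicate read lower than the first, and the median shift over the list was -0.20. *atf1* and *pcr1* went the other way, with replicate 2 higher by 0.44 and 0.57. By Euclidean distance over the 3 arrays, the nearest of the 35 other genes to *atf1* were *chp1*, a chromodomain protein of the RITS complex (0.348), and *mmi1*, an RNA-binding protein that removes meiotic transcripts (0.351). Those nearest to *taz1* were *pcu4*, a cullin of the Clr4 complex (0.0933), and *cdc20*, the catalytic subunit of DNA polymerase epsilon (0.129). *pcr1* had no near neighbour, with *mmi1* at 0.711 and *seb1*, an RNA-binding protein of the Nrd1 family, at 0.795. *seb1* had 0.45, 0.58 and -0.47, the same order of the mutants as *pcr1*.

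**Figure D4:**
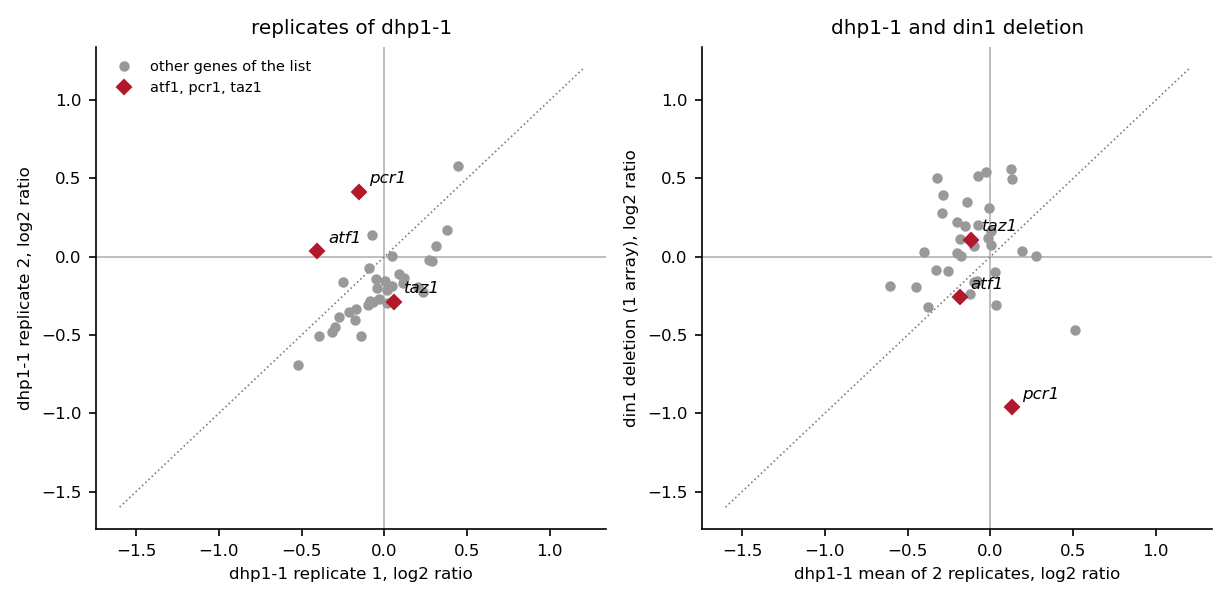
Log2 ratios of mutant over wildtype for the 36 listed genes, *act1* included, with replicate 2 against replicate 1 of *dhp1-1* (left) and *din1Δ* against the *dhp1-1* mean (right). Each point is a gene, diamonds mark *atf1*, *pcr1* and *taz1*, and the dotted line marks equal values. *atf1* and *pcr1* lie above the dotted line on the left, where 30 of the 36 genes lie below it, and *pcr1* is lowest in *din1Δ* at -0.96.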

How the data were processed

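Cultures of *dhp1-1* (2 arrays), *din1Δ* (1 array) and their wildtype strains were profiled after rRNA depletion and reverse transcription with oligo(dT) and random hexamers. The authors extracted spots with Agilent Feature Extraction 10.7.3.1, per the submitters' processing notes. The authors deposited spot and background intensities without normalization, processed signal intensities, flags of spot quality, log10 ratios of red to green and the p-value of each ratio. A deposited table of log2 ratios repeats these with 0 wherever that p-value reached 0.05, which is 64.4% to 72.5% of the probes of an array. All 3 of its columns were used, 0 others were left out, and the table placed the genes and served as an alternative. The scanner header and the paper name different genome builds, so no coordinates are given.

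Median intensities were background-corrected with normexp (offset 50), which draws ratios of dim spots towards 0, and loess-normalized in limma 3.58.1 (R 4.3.3). The mean intensities preferred for this were not used here. Control spots and the 295, 1345 and 645 outlying spots of the arrays were left out. No spot was saturated, and the number of arrays limits the precision. Features were 8702 same-strand tiles of 20 probes, the 36 genes, and the flanks (5 same-strand probes), opposite strands and further blocks of the members. They overlap, so they are not independent. Coefficients for each mutant and their difference were fitted with lmFit and eBayes, and called at an adjusted p under 0.05. A second fit took 172358 probes singly. Strand was inferred from gene order, locus tags and wildtype brightness. The run was brighter than the opposite strand on all arrays at 35 of 36 genes, and 33 of 33 neighbouring pairs followed the gene order of ASM294v3.

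Named genes were the members, the SHREC genes with *ccq1*, the 2 listed genes nearest to each member, and the listed actin gene *act1*. The members and all lists were chosen with earlier results of these data known. The stretch around *atf1*, the blocks beyond the first flank, and the fits with tiles of other sizes were added after the values were seen. Alternatives were the background correction, normalization, source table, filters on dim probes, median over probes, tile size, slide and each replicate left out. Placement was tested on known runs of the deposited table, and the fit on simulated data. Tables and plots were made with Python 3.11.15, numpy 2.4.6, pandas 2.3.3 and matplotlib 3.10.9.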

Additional observations from a re-analysis of the deposited data

Results flagged for a closer look

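At 9 places, of which 2 overlap, the effects of the mutants against wildtype differed by the test of the difference itself (limma, Benjamini-Hochberg over 8761 features, 13.4% of which passed). The differences of *dhp1-1* minus *din1Δ*, on the log2 scale, were -1.05 in the 5 probes downstream of *atf1* (adjusted p = 8.25e-05), 2.70 in the next 5 (adjusted p = 1.84e-09) and 0.48 in the 5 after those (adjusted p = 0.0498). Over the 4 bright probes that end the wildtype stretch past *atf1*, all of them among the first 5 downstream, the difference was -0.96 (adjusted p = 0.000289). They were 0.67 in the 17 bright probes before the *atf1* run (adjusted p = 0.00907) and 1.09 at *pcr1* (adjusted p = 0.000422). They were 0.46 in probes 6 to 10 downstream of *pcr1* (adjusted p = 0.0498) -0.66 upstream of *taz1* (adjusted p = 0.00610) and -0.64 in probes 11 to 15 downstream of it (adjusted p = 0.0299). Each rests on a single *din1Δ* array and on different wildtype strains, whose part in the differences cannot be told apart from that of the mutants. The blocks beyond the first 5 downstream probes, and the bright stretches beside the *atf1* run, were chosen after their values were seen. Their adjusted p-values are therefore no independent test.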

How the results depend on the processing

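No paired analysis was possible because *din1Δ* has a single array, which leaves 1 shared number, and no replicate block was fitted. The tests of *atf1*, *taz1* and *pcr1* in *dhp1-1* missed the threshold in all 9 alternative fits with a test as well (adjusted p 0.198 to 0.403, 0.229 to 0.742 and 0.428 to 1.00). Leaving out a *dhp1-1* replicate gave -0.40 to 0.036 for *atf1*, -0.15 to 0.42 for *pcr1*, -0.29 to 0.058 for *taz1* and 2.41 to 2.94 for probes 6 to 10 past *atf1*. The differences from *din1Δ* became -0.15 to 0.29, 0.81 to 1.38, -0.39 to -0.050 and 2.44 to 2.97. On the shared slide alone they were -0.15, 0.81, -0.050 and 2.97. The *pcr1* difference lost its call with the scanner ratios (1.09) and with the deposited table (0.98, adjusted p = 0.236), where its *dhp1-1* value was 0.00. That table gave 4.12 for probes 6 to 10 past *atf1* in *dhp1-1* (adjusted p = 0.0529) and 4.12 for the difference (adjusted p = 0.252), without a call. Scanner ratios gave 4.12 (adjusted p = 0.000167) and 4.41 (adjusted p = 0.00634), with the call kept, and -0.30 there in *din1Δ*. With only bright probes this block could not be fitted. The difference past *taz1* (0.08) turned to -0.020 with scanner ratios and -0.11 with the deposited table. The *dhp1-1* value of probes 6 to 10 past *pcr1* was -0.050 under both filters on dim probes. The 11 called genes of the list became 10 without background correction or with the median over probes, 7 with scanner ratios, 6 and 5 under the filters for 1 and both channels, 4 under median centring and 0 with the deposited table. The 1 called member probe became 0 under median centring and with scanner ratios, and the deposited table was not run by probe. The differences of 0.48 and 0.46 past *atf1* and *pcr1* passed in none of 8 alternative fits. The cause of these shifts was not tested.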
